A study of Mus musculus with 10 samples.

Results

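The genes described here are the chromosome 1 neighbours of the myostatin gene, Mstn, measured in the gastrocnemius muscle of mice with and without a recombinable Mstn allele. They were chosen by position, as genes whose start lies between 33 and 73 Mb on chromosome 1 of mouse genome build GRCm38, and selected on 1 measured value, a log2 intensity that averaged at least 4 across the 10 arrays. This gave 139 genes of the 10704 genes tested in the series. Apart from 11 genes that the choice leaves out by name, the region held 212 genes with a probe set of 1 annotated symbol, of which 73 were dimmer than that threshold.

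Each array measured the muscle RNA of 1 male mouse on a C57BL/6 background at 7.5 months of age. The 5 control mice had normal myostatin genes and the 5 knockout mice had floxed Mstn, that is, Mstn flanked by sites at which Cre recombinase cuts. All 10 carried the CAGG-CreER transgene, in which a broadly active promoter drives a Cre that works after tamoxifen, and all received 8 tamoxifen injections from 4 months of age. The labels do not give the strain in which the floxed allele was made, nor the number of backcrosses to C57BL/6. The annotation names no probe set for Mstn, and the extent of its loss was not analysed here. Nothing in the labels ties the arrays to litters or processing days.

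Myostatin is a secreted member of the TGF-beta family that skeletal muscle fibres make and that limits muscle mass. It acts through activin receptors and Smad transcription factors on genes anywhere in the genome. Genes beside Mstn share no pathway with it as a group. They can be inherited together with the floxed allele, though how far along the chromosome this held in these mice was not measured. In knockout lines in general the DNA around a modified locus can keep sequence of the strain in which the allele was made. By their labels all 5 knockouts, and no control, have the floxed allele. Any effect of DNA linked to it and any effect of myostatin loss therefore cannot be told apart here, and neither was measured.

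Across the 139 genes, 16 genes (11.5%) had groups that did not overlap, that is, every knockout array lay above or below every control array. Of all 10704 genes tested, 2.63% did so. In 8 of the 16 the knockouts were higher, where the share over all genes was 1.32%, and in the other 8 they were lower, where it was 1.31%. None of the 139 genes passed an adjusted p of 0.05 by limma on its brightest probe set, while 14 of all genes did (0.131%). At an unadjusted p under 0.05 there were 32 of the 139 genes (23.0%), where the share of all genes tested was 8.9%. The members were not shifted one way as a group. Knockout means were higher for 63 genes and lower for 76, with a median difference of -0.03 on the log2 scale against -0.0049 over all genes. The median size of the difference was 0.14 against 0.11. The median spread within groups was 0.19 (pooled SD) against 0.22, and the median level of 8.76 was close to the 8.57 of all genes. No test of these shares was made, since neighbouring genes are not independent.

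**Figure D1:**
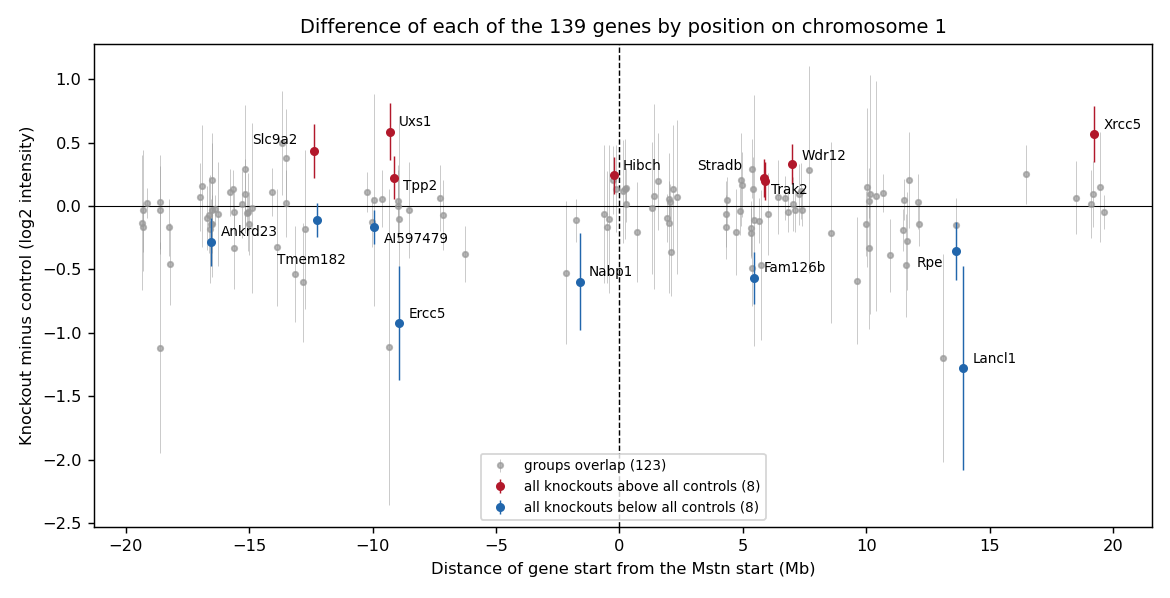
Difference between knockout and control (log2 intensity, brightest probe set, vertical axis) for each of the 139 genes against the distance of its start from the Mstn start (Mb, horizontal axis). Points are differences with 95% intervals from limma, n = 5 arrays per group, and the 16 genes whose groups do not overlap lie on both sides of Mstn, 8 above 0 and 8 below.

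In 12 pairs of members the genes start on opposite strands within 1000 bases of each other, and the promoters of 2 such pairs are shown because their members moved in value alike in 1 and apart in the other. In 6 of the 12 pairs both differences had the same sign. Trak2, an adaptor that ties mitochondria to kinesin motors, and Stradb, a pseudokinase partner of the kinase LKB1, start 40 bases apart and are the 1 pair in which neither gene's groups overlapped. Both were higher in knockouts. Ppil3, a cyclophilin of the spliceosome, and Nif3l1 overlap by 335 bases at their 5′ ends and had differences of opposite sign. The sequences are those of RefSeq for GRCm38.p6, 250 bases before to 50 bases after the start, written 5′ to 3′ on the strand of the gene. Stradb lies at chr1:58973272-58973571 on the plus strand and Trak2 at chr1:58973433-58973732 on the minus strand, so the pair shares part of its letters in opposite orientation. Ppil3 lies at chr1:58445437-58445736 on the minus strand and Nif3l1 at chr1:58444901-58445200 on the plus strand. Capitals mark each match, on either strand, to CAGAC (the Smad box), GGGCGG (the GC box), CCAAT (the CCAAT box) or TGACG (the core of the cAMP response element).
Stradb: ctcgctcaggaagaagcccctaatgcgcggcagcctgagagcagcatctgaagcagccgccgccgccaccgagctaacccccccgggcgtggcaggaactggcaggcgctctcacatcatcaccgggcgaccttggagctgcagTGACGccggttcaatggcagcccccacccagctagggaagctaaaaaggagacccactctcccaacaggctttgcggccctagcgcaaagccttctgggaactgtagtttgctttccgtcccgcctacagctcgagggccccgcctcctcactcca
Trak2: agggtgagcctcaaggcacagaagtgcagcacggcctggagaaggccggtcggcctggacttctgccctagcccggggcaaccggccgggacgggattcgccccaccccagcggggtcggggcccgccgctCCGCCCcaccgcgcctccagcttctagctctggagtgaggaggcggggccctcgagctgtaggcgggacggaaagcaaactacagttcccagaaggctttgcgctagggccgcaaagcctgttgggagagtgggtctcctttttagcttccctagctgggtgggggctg
Ppil3: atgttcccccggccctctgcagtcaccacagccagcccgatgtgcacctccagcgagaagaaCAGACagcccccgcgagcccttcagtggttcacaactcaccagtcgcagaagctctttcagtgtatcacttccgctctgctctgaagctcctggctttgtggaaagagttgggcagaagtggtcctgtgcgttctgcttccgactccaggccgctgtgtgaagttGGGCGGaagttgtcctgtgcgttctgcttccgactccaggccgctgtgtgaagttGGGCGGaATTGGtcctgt
Nif3l1: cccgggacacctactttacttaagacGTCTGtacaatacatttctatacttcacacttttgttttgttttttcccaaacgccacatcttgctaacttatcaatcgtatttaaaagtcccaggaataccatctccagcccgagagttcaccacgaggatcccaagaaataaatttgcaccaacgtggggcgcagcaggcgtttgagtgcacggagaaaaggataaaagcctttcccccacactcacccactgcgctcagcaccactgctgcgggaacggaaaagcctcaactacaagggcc
Stradb held 1 cAMP element core and Trak2 1 GC box, read on the opposite strand. Ppil3 held 1 Smad box, 2 GC boxes and 1 CCAAT box, and Nif3l1 held 1 Smad box. None of the 4 motifs contains another, though matches may share letters. A promoter was listed for 127 of the 139 genes. CAGAC was found in 43.3% of these and in 52.4% of the 8668 tested genes with a promoter. GGGCGG was found in 73.2% against 69.3%, CCAAT in 46.5% against 42.6% and TGACG in 34.6% against 36.0%. Over all 32851 promoters of the table the shares were 49.6%, 35.7%, 37.4% and 20.8%. These matches describe the letters and not binding.

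Stradb was 11.67, 11.70, 11.56, 11.67 and 11.59 in controls 1 to 5 and 11.76, 11.92, 11.71, 11.88 and 11.90 in knockouts 1 to 5 (log2 intensity, as are all levels and differences below). Trak2 was 8.86, 9.03, 8.92, 8.86 and 8.87 in controls and 9.04, 9.06, 9.17, 9.18 and 9.20 in knockouts. In both genes the groups were parted by a margin smaller than the spread within a group, and neither passed the threshold. The difference was 0.20 ± 0.07 (SE, adjusted p = 0.505 by limma) for Stradb and 0.22 ± 0.07 (adjusted p = 0.437) for Trak2. A dimmer probe set of Stradb differed by -0.04. Ppil3 differed by -0.49 ± 0.14 (adjusted p = 0.393) and Nif3l1 by 0.30 ± 0.10 (adjusted p = 0.52), and the groups of each overlapped.

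By distance from Mstn, the share of genes with non-overlapping groups was not highest at Mstn itself. It was 2 of 31 genes (6.45%) within 5 Mb on either side, 8 of 39 (20.5%) between 5 and 10 Mb, 4 of 31 (12.9%) between 10 and 15 Mb and 2 of 38 (5.26%) between 15 and 20 Mb. The counts per step are small. The steps also differed in level and spread. In the same order, the median level was 7.43, 8.86, 8.77 and 8.69, and the median pooled SD 0.26, 0.17, 0.28 and 0.19. The median size of the difference was 0.14, 0.13, 0.18 and 0.10. The part of level and spread in these shares was not tested. On the side of lower coordinates 9 of 67 genes (13.4%) had groups that did not overlap, and on the side of higher coordinates 7 of 72 (9.72%). The stretch from 10 to 5 Mb below Mstn held 4 of its 14 members, namely AI597479, Uxs1, Tpp2 and Ercc5. From Mstn to 5 Mb above it none of 22 members did so, and 1 of the 22 had an unadjusted p under 0.05.

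The 11 genes left out by name lie in the same region. Of these, Mettl21e, Igfbp5, Col3a1 and Col5a2 had groups that did not overlap, and Mettl21e passed the threshold. With the 11 genes added, 20 of 150 genes (13.3%) had non-overlapping groups. On the rest of chromosome 1 it was 25 of 481 genes (5.20%), 7 higher and 18 lower, and 4 of the 481 passed the threshold. In steps of 10 Mb along the chromosome the share did not stop at the limits of the region. It was 5 of 50 genes (10%) from 20 to 30 Mb above Mstn, 5 of 47 (10.6%) from 30 to 40 Mb, 2 of 20 (10%) from 40 to 50 Mb and 4 of 31 (12.9%) from 70 to 80 Mb. From 30 to 20 Mb below Mstn it was 1 of 9. None of 10 genes from 50 to 60 Mb above it and none of 19 from 60 to 70 Mb had non-overlapping groups. Farther above Mstn the share was lower, 1 of 41 (2.44%) from 80 to 90 Mb and 1 of 19 from 90 to 100 Mb. It was 1 of 35 from 100 to 110 Mb and 2 of 70 from 110 to 120 Mb. From 120 to 130 Mb it was 2 of 42, and from 130 to 140 Mb 0 of 37. Below Mstn it was 1 of 19 from 40 to 30 Mb and 0 of 20 from 50 to 40 Mb. The share was highest, 9 of 26 genes (34.6%), in the 10 Mb just below Mstn, left-out genes included. On the other chromosomes it was 236 of 10035 genes (2.35%), and among the 19 of these with over 100 genes tested it ran from 1.23% to 3.99%. At unadjusted p under 0.05 these 19 chromosomes ran from 5.32% to 12.1%, against 23.0% of the 139 genes and 16.2% of the rest of chromosome 1.

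**Figure D2:**
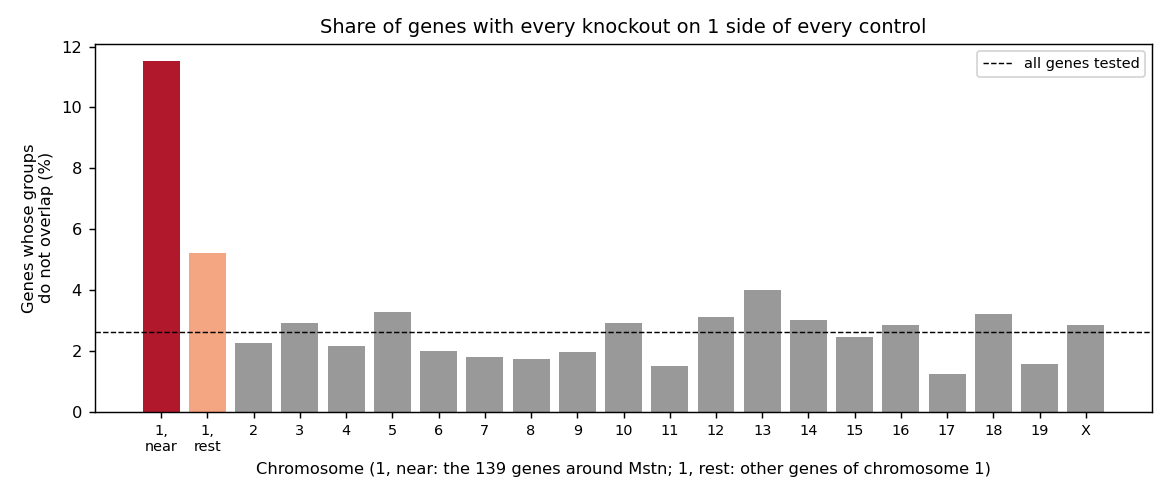
Percent of genes (vertical axis) whose 5 knockout arrays all lay on 1 side of the 5 control arrays, by chromosome (horizontal axis), with chromosome 1 split into the 139 genes near Mstn and its other 481 genes. The bar of the 139 genes stands at 11.5%, the rest of chromosome 1 at 5.20%, and the dashed line marks the 2.63% of all genes tested.

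Leaving aside 1700019D03Rik, at -0.14 Mb (0.14 ± 0.15), 5 members with gene names were taken nearest to Mstn on each side. Of these 10, Hibch was the only 1 whose groups did not overlap. Hibch is a mitochondrial hydrolase of valine breakdown, at -0.22 Mb from the Mstn start. It was 10.15, 10.25, 10.34, 10.35 and 10.30 in controls and 10.46, 10.59, 10.47, 10.60 and 10.48 in knockouts. The highest control lay 0.11 below the lowest knockout, the difference was 0.24 ± 0.07 (1.18-fold) and the adjusted p was 0.376. Its second probe set differed by 0.21 with overlapping groups. Both probe sets thus gave values of the same sign and similar size.

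The other members below Mstn were Inpp1, an inositol phosphatase (0.21 ± 0.12), the transporter-like gene Mfsd6 (-0.10 ± 0.26), the nuclear envelope gene Nemp2 (-0.17 ± 0.20) and Nab1, a corepressor of EGR transcription factors (-0.06 ± 0.24). Above Mstn lay the mismatch repair gene Pms1 (0.11 ± 0.18), Ormdl1 of sphingolipid synthesis (0.14 ± 0.18) and Osgepl1, a mitochondrial tRNA-modifying enzyme (0.14 ± 0.07). Asnsd1 (0.02 ± 0.06) and the kinase gene Stk17b (-0.20 ± 0.18) followed. None of these 9 passed, with adjusted p values from 0.684 for Osgepl1 to 0.991 for Asnsd1 and Nab1. For Asnsd1 the 95% interval ran from -0.13 to 0.16. For Nab1 it ran from -0.61 to 0.48.

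Counts by role are to be read beside the 11.5% of the 139 genes and the 2.63% of all genes whose groups did not overlap, and the role lists were drawn up with earlier results known. Of 8 measured genes of DNA replication and repair, 3 had non-overlapping groups (37.5%). Xrcc5 encodes Ku80, which binds broken DNA ends for rejoining. It was 9.75, 9.60, 9.37, 9.70 and 9.67 in controls and 10.21, 10.28, 9.93, 10.30 and 10.19 in knockouts. All knockouts lay above all controls, and within each group the array of replicate 3 was the lowest. The difference was 0.57 ± 0.10 (1.48-fold) with an adjusted p of 0.0969, and Xrcc5 lies 19.25 Mb above Mstn, near the end of the region.

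Ercc5 encodes the XPG endonuclease, which cuts beside damaged bases in nucleotide excision repair. It was 8.51, 8.28, 8.47, 8.28 and 8.35 in controls and 6.95, 8.07, 7.03, 7.72 and 7.50 in knockouts. The controls lay close together (SD 0.11), while the knockouts were spread (SD 0.47), with knockouts 1 and 3 lowest. The difference was -0.92 ± 0.20 (1.90-fold lower) and did not pass (adjusted p = 0.214).

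Nabp1, a single-stranded DNA-binding protein, was 9.19, 10.02, 9.23, 9.31 and 9.09 in controls and 8.88, 8.83, 8.53, 8.73 and 8.91 in knockouts. Control 2 stood above the other controls, and all 5 controls lay above every knockout. With 1 array left out the difference ran from -0.66 to -0.43. The difference was -0.59 ± 0.17 (adjusted p = 0.417), and all 5 of its probe sets differed in the same direction, from -0.25 to -0.81. The brightest of the other members, the origin recognition gene Orc2, differed by 0.13 ± 0.11.

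Of 20 measured genes of the mitochondrion and metabolism, 4 had non-overlapping groups (20%), 2 higher and 2 lower. Uxs1 makes UDP-xylose, the sugar donor that starts glycosaminoglycan chains on proteoglycans. It was 8.31, 8.46, 8.28, 8.10 and 8.23 in controls and 8.96, 8.80, 8.59, 9.04 and 8.92 in knockouts. All knockouts were higher, the difference was 0.58 ± 0.10 (1.5-fold) and the adjusted p was 0.0967. On a dimmer probe set Uxs1 did pass the threshold, as described with the other probe sets.

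Rpe, an epimerase of the pentose phosphate pathway, was 7.39, 7.69, 7.58, 7.63 and 7.47 in controls and 7.33, 7.37, 7.05, 6.96 and 7.29 in knockouts. The groups were parted by 0.03, less than the spread within either, and the difference was -0.35 ± 0.10 (adjusted p = 0.418). Hibch and Lancl1 are the other 2 of the 4. The brightest genes of this role had small differences, 0.06 ± 0.06 for the chaperonin gene Hspe1, 0.13 ± 0.07 for the cytochrome oxidase assembly gene Coa5 and -0.03 ± 0.05 for Cox5b, a subunit of cytochrome oxidase. Cox5b was at a level of 15.24, where the array can saturate.

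Lancl1, a glutathione-binding protein, had the largest difference of the 16 genes. It was 11.10, 10.79, 10.92, 10.92 and 11.01 in controls and 8.79, 10.70, 9.14, 9.21 and 10.53 in knockouts. Knockouts 2 and 5 lay just under the controls, while knockouts 1, 3 and 4 lay well below them. The difference was -1.28 ± 0.36 (2.42-fold lower) with an adjusted p of 0.40.

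Among 16 measured genes of the ribosome, translation and RNA processing, Wdr12 alone had non-overlapping groups (6.25%). Wdr12 acts in the assembly of the large ribosomal subunit. It was 9.26, 9.14, 8.97, 9.19 and 9.13 in controls and 9.39, 9.54, 9.49, 9.49 and 9.43 in knockouts. All knockouts were higher, by 0.33 ± 0.07 (adjusted p = 0.197), while its second probe set differed by 0.0081. The bright genes of this role differed by -0.05 ± 0.06 (Rpl37a, a ribosomal protein), 0.04 ± 0.06 (Eef1b2, an elongation factor) and -0.18 ± 0.10 (Clk1, a kinase of splicing factors).

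**Figure D3:**
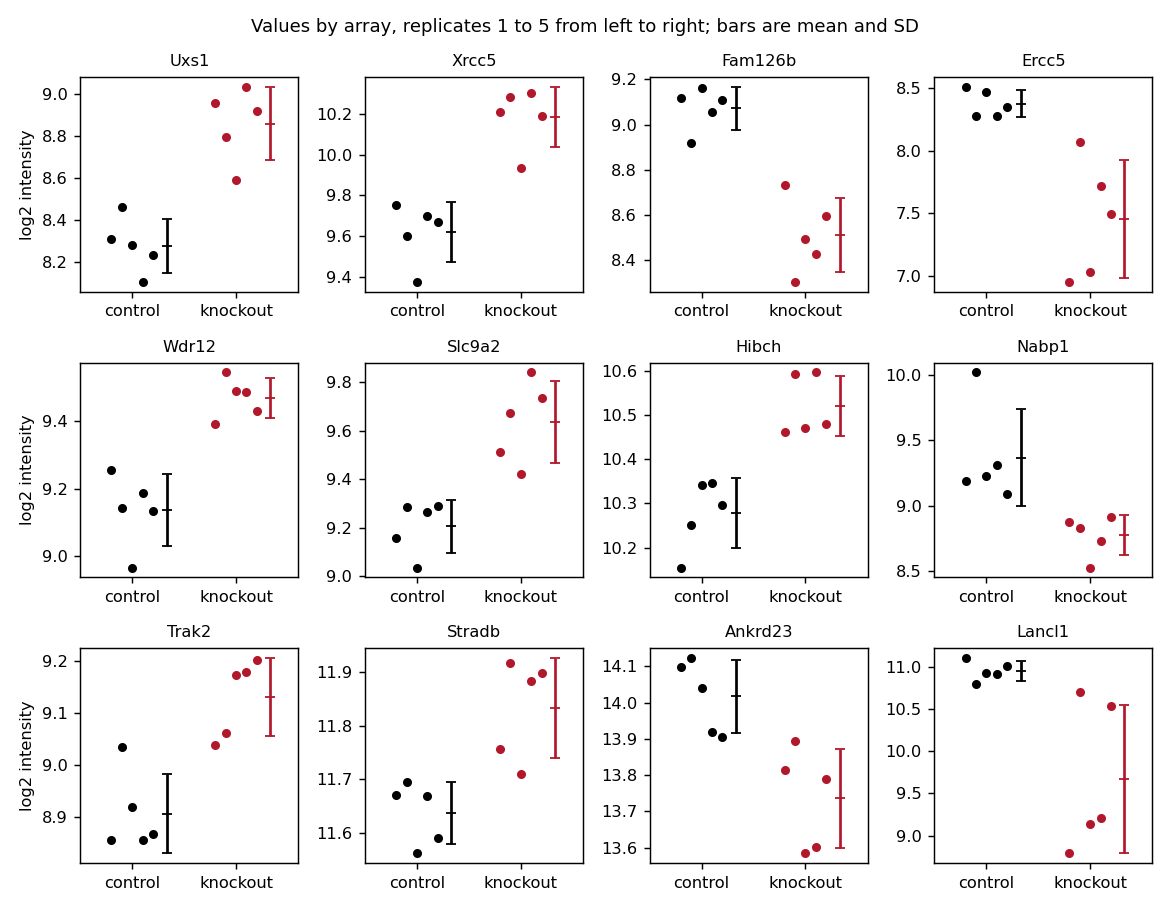
Log2 intensity (vertical axis, own scale per panel) in each of the 5 control and 5 knockout arrays for 12 of the 16 genes whose groups do not overlap, with the mean and SD beside each group. Uxs1, Xrcc5, Wdr12, Slc9a2, Hibch, Trak2 and Stradb lie higher in knockouts, the other 5 lower, and the knockouts of Ercc5 and Lancl1 are spread more widely than their controls.

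Of 17 measured genes of muscle, cytoskeleton and membrane trafficking, 1 was higher without overlap (Trak2) and 2 were lower, 17.6% in all. Ankrd23 encodes an ankyrin-repeat protein that binds titin in the sarcomere. It was 14.10, 14.12, 14.04, 13.92 and 13.91 in controls and 13.81, 13.89, 13.59, 13.60 and 13.79 in knockouts, a difference of -0.28 ± 0.09 (adjusted p = 0.454). Tmem182, a membrane protein of muscle, was 12.98, 13.03, 13.06, 12.97 and 12.99 in controls and 12.79, 12.91, 12.97, 12.95 and 12.85 in knockouts. Both were parted by about 0.01, and for Tmem182 the 95% interval of the difference ran from -0.25 to 0.02. The cytolinker gene Dst, at 13.88, differed by 0.02 ± 0.05.

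Of 7 measured genes of apoptosis and ubiquitin-like modifiers, Stradb and Tpp2 were higher without overlap (28.6%). Tpp2, a large cytosolic peptidase, was 9.11, 9.05, 8.88, 9.10 and 9.15 in controls and 9.18, 9.33, 9.31, 9.39 and 9.18 in knockouts, a difference of 0.22 ± 0.08 (adjusted p = 0.505). Its 4 other probe sets differed by 0.32, 0.15, -0.27 and -0.28, with overlapping groups. Cflar, an inhibitor of caspase 8, differed by -0.11 ± 0.08.

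Of 6 measured genes of ion and metal transport, Slc9a2, a sodium and proton exchanger, was higher without overlap (16.7%). It was 9.16, 9.28, 9.04, 9.27 and 9.29 in controls and 9.51, 9.68, 9.42, 9.84 and 9.73 in knockouts. The difference was 0.43 ± 0.10 (1.35-fold, adjusted p = 0.228). The zinc importer Slc39a10 had the lowest p of the genes whose groups overlapped, with -0.38 ± 0.10 (adjusted p = 0.342). The iron exporter Slc40a1 differed by -0.07 ± 0.12 and the magnesium transport gene Cnnm3 by -0.14 ± 0.09.

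None of 12 genes of growth factor, Wnt and BMP receptors and adaptors, 11 of transcription and chromatin, or 5 of interferon, cytokine and lymphocyte signalling had non-overlapping groups on the brightest probe set. Bmpr2, a BMP receptor of the family through which TGF-beta ligands signal, differed by 0.06 ± 0.08 and the Wnt receptor Fzd7 by 0.07 ± 0.13. Map4k4, a kinase of stress signalling, differed by -0.54 ± 0.17 (adjusted p = 0.469), Klf7, a zinc finger transcription factor, by -0.39 ± 0.13 (adjusted p = 0.486) and Il1r1, the interleukin 1 receptor, by -0.60 ± 0.21 (adjusted p = 0.513). Ikzf2, a transcription factor of lymphocytes, differed by 0.25 ± 0.10 (adjusted p = 0.606) while of 5 lymphocyte markers 4 were on the array and none of these was bright enough to be tested.

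Of 37 members in none of these roles, Fam126b and AI597479 were lower without overlap (5.41%). Fam126b, a homologue of hyccin, had the lowest p of the 139 genes. It was 9.12, 8.92, 9.16, 9.06 and 9.11 in controls and 8.73, 8.30, 8.49, 8.43 and 8.60 in knockouts. All knockouts were lower, by 0.18 or more, with a difference of -0.56 ± 0.09 (1.48-fold lower) and an adjusted p of 0.0769. Its 3 other probe sets differed by -0.50, -0.30 and -0.05. AI597479, an accession symbol named here after its values were seen because it is 1 of the 16, was 10.54, 10.43, 10.41, 10.53 and 10.42 in controls and 10.39, 10.28, 10.25, 10.30 and 10.30 in knockouts (-0.16 ± 0.06, adjusted p = 0.555).

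The tissue is a mixture, and most markers of cells other than fibres were lower in knockouts, though none passed. The 6 fibroblast markers were all lower in mean. Their mean log2 level per array was 10.72 to 11.16 in controls and 10.15 to 10.87 in knockouts. Also lower in mean were 5 of 5 tendon, 5 of 5 macrophage, 3 of 3 smooth muscle, 3 of 3 Schwann cell, 4 of 5 endothelial and 2 of 2 adipocyte markers. The 1 erythroid marker tested was higher in mean by 0.41. The 7 markers of skeletal fibres were at 15.20 to 15.27 in controls and 15.22 to 15.31 in knockouts. All 7 were higher in mean in knockouts, with a median difference of 0.04. Their median level of 15.23 is one where the array can saturate, so the size of any difference in them is uncertain. In whole muscle, fewer cells of a type and less RNA per cell cannot be told apart, and the part of these markers in the values of the 8 lower genes was not tested. The hybridisation controls, bacterial RNA added to each array, were highest on control 3 and knockouts 1 and 3. With group means removed, so within groups over the 10 arrays, the median size of the correlation with them was 0.51 for the 139 genes. It was 0.34 for the 16 genes and 0.57 for all genes. Among the 16 genes this correlation within groups was largest in size for Stradb (-0.88) and Slc9a2 (-0.78). For Ercc5, Lancl1 and Xrcc5 it was -0.59, -0.68 and -0.68. The part of the hybridisation level in these values was not tested beyond the alternatives given at the end.

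Different probe sets of a gene read different parts of its transcripts, and in several members they disagreed. Where the probes lie in the transcripts, and whether sequence differences between strains lie under them, was not looked at. The 139 genes had 250 probe sets bright enough to be tested, of which 2 passed the threshold, while 0.0993% of all 21154 probe sets did. Neither was the brightest of its gene. For Uxs1, the called probe set was 7.18, 7.22, 7.41, 7.29 and 7.29 in controls and 7.86, 7.99, 7.77, 7.92 and 7.67 in knockouts. It rose by 0.56 ± 0.08 (adjusted p = 0.047), close to the 0.58 of the brightest probe set, and the dimmest probe set differed by 0.11 ± 0.36.

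For Kansl1l, a homologue of a subunit of a histone acetyltransferase complex 13.66 Mb above Mstn, the called probe set was 6.46, 6.99, 6.61, 6.64 and 6.69 in controls and 8.40, 8.06, 8.30, 8.03 and 7.44 in knockouts. It rose by 1.37 ± 0.18 (adjusted p = 0.0377). Its dimmest probe set went the other way in value, with 5.28, 4.86, 4.99, 5.36 and 5.34 in controls and 2.78, 5.37, 3.61, 2.15 and 4.38 in knockouts (-1.51 ± 0.52, adjusted p = 0.513). The 3 brighter probe sets differed by -0.15 to -0.18. The direction for Kansl1l as a gene is therefore not settled by these probe sets. The calls of both probe sets rest near the threshold: leaving out any 1 array other than knockout 5 ended each of them, as did testing all probe sets with no filter on dim values.

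For Lancl1, at 13.94 Mb, both probe sets had groups that did not overlap, in opposite directions. Against the -1.28 of the brightest, its dimmer probe set was 6.31, 6.60, 5.97, 6.37 and 6.73 in controls and 6.98, 7.10, 6.76, 7.21 and 7.25 in knockouts (0.66 ± 0.15, adjusted p = 0.244). Of 4434 genes of the array with 2 or more probe sets tested, Lancl1 was the only 1 with such an opposition. In 35 of the 64 members with 2 or more probe sets (54.7%) all differences had the same sign, against 60.3% of the 4434 genes. The gap between the highest and lowest difference had a median of 0.21 in members and 0.14 in all. It was over 1 in 2 of 64 members (3.12%), Kansl1l and Lancl1, and in 15 of 4434 genes (0.338%). With the mean of a gene's probe sets in place of the brightest, 8 of the 139 genes (5.76%) had non-overlapping groups, against 2.23% of all genes.

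**Figure D4:**
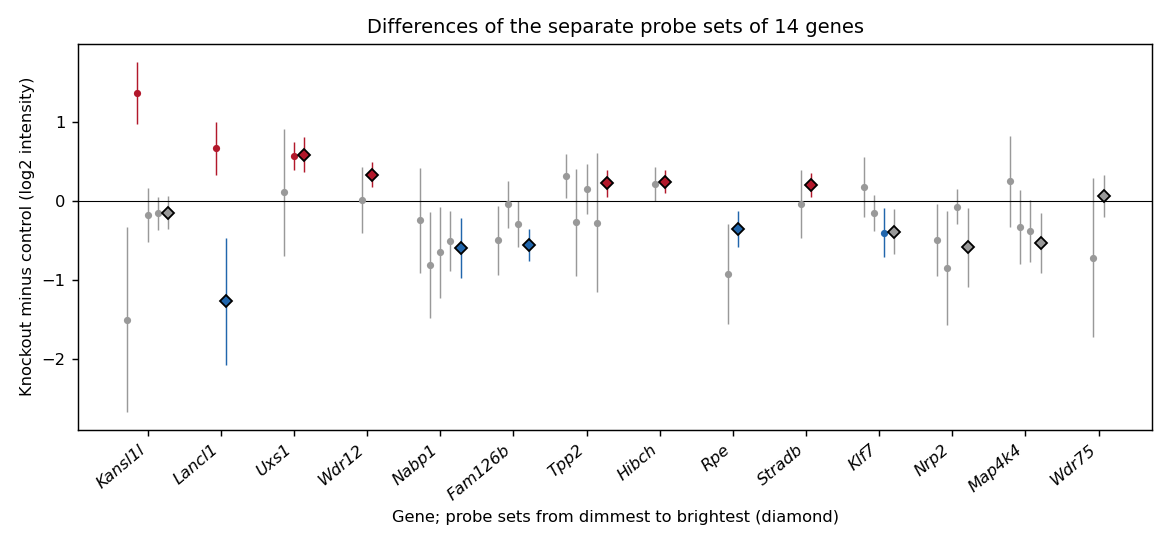
Difference between knockout and control (log2 intensity, vertical axis) with 95% interval for each tested probe set of 14 of the 139 genes (horizontal axis), ordered within a gene from dimmest to brightest, the brightest as a diamond. Red and blue mark probe sets whose groups do not overlap, higher and lower in knockouts, and the probe sets of Kansl1l and Lancl1 lie on both sides of 0.

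At the intensity threshold, the dimmest members were Map2 (4.15), Pgap1 (4.21) and Sgo2a (4.35), and the brightest genes just under it were Prim2 (3.23), Bend6 (3.16) and Zap70 (3.13), as means over all arrays. Map2, a microtubule-associated protein, was 5.41, 5.20, 4.18, 4.16 and 4.80 in controls and 2.67, 4.02, 3.02, 3.68 and 4.36 in knockouts, so that its knockout mean lay below 4. By position the members ran from Rab23, at -19.34 Mb from the Mstn start, to Rpl37a, at 19.65 Mb. The nearest tested genes outside were Phf3, at -22.26 Mb (0.04 ± 0.08), and Tns1, at 20.85 Mb (0.10 ± 0.08), apart from an unnamed transcript. The groups of both overlapped, though farther out other genes did not, as the 10 Mb steps show.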

How the data were processed

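The deposited table holds linear microarray intensity values, which the authors made with GCRMA per the submitters' processing notes (version not given in the sources used here). GCRMA corrects background by probe sequence, normalizes between arrays and summarises probe sets, and it compresses dim values. Here log2 was taken of the deposited intensity and nothing else was normalized. Arrays have no read depth, so their number limits the precision.

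Of 45101 probe sets, 34958 carried 1 symbol in the platform annotation, 932 several and 9211 none. Those with a mean log2 of 4 or more were kept, without 64 array controls, which left 21154. The groups were compared by a two-sided moderated test in R 4.3.3 with the functions lmFit and eBayes of limma 3.58.1. The p values were adjusted by the Benjamini-Hochberg method over the kept probe sets, with a threshold of 0.05. The brightest probe set stood for a gene. Adjusted p values in the text are from this fit. Gene starts (the lower coordinate of each gene) and distances came from the RefSeq table of GRCm38.p6. Named are members past the threshold on any probe set, members whose groups do not overlap, the 5 nearest to Mstn on each side after unnamed transcripts (Rik, Gm and accession symbols) are skipped, the brightest and lowest-p members of each role and those at the limits of the rule. Members, role lists and alternatives were chosen with earlier results of these data known. The fit was run on simulated data with known changes and noise drawn independently for each probe set. Such data lack variation that probe sets share within an array, and no result here rests on that run. The arrays themselves correlated with each other at 0.94 to 0.99. With group means removed, over the kept probe sets, same-numbered arrays of the 2 groups correlated at -0.51, 0.13, 0.62, -0.20 and 0.19. The numbers were therefore not taken as pairs. Figures used matplotlib 3.10.9.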

Additional observations from a re-analysis of the deposited data

Results flagged for a closer look

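In 5 of 102 groups of 5 arrays tested among the named genes, 1 array stood far from the other 4, where chance gives about 1 in 20. Nabp1 was 10.02 in control 2 against 9.09 to 9.31 in the other controls (log2 intensity). Inpp1 was 5.37 in knockout 4 against 5.10 to 5.12 in the other knockouts. Osgepl1 was 12.11 in knockout 4 against 11.99 to 12.02. Nab1 was 5.48 in knockout 5 against 6.33 to 6.40, and Stk17b was 6.996 in knockout 5 against 6.44 to 6.57. Inpp1, Osgepl1, Nab1 and Stk17b are among the 10 members with gene names taken nearest to Mstn.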

How the results depend on the processing

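The 21 probe sets past the threshold over the whole array became 11 with no filter, 36 after quantile normalization, 58 with a variance trend and robust fit, 67 with array weights, 1 with the replicate block, 99 with the hybridisation control covariate and 5 without the 3 arrays of highest hybridisation controls. Leaving out each array in turn gave 1 to 17. Of the 139 genes, 0 passed in the main setting. There were 2 after quantile normalization (Xrcc5 and Uxs1), 1 after median centring (Xrcc5) and 2 with the trend and robust fit (Fam126b and Xrcc5). There were 3 with array weights (Fam126b, Xrcc5 and Uxs1) and 5 with the covariate (these 3, Map2 and Slc9a2). In the same order of settings, 27, 19, 43, 43 and 57 of all 10704 genes passed, against 14 in the main setting. Of the 139 genes 0 passed with the replicate block or any array left out. The 16 genes with non-overlapping groups became 32 without the 3 arrays (all genes 13.6%). With 1 array left out there were 16 to 22 (all genes 3.21% to 4.80%). Leaving arrays out can only keep or raise this count, since groups that do not overlap stay so with fewer arrays. The count was 8 with the mean of probe sets (all genes 2.23%). Within 10 Mb of Mstn it was 10, namely 2 of 31 genes (6.45%) within 5 Mb and 8 of 39 (20.5%) beyond. After quantile normalization 13 of the 139 genes (9.35%) had non-overlapping groups, against 3.28% of all genes. After centring it was 12 (8.63%), against 3.12% of all genes. Of these, 11 and 9 were shared with the 16. The 32 genes at unadjusted p under 0.05 became 20 with the mean of probe sets (14.4%, against 7.85% of all genes). With 1 array left out there were 27 to 32, where the share of all genes was 6.66% to 10.2%. Within 10 Mb there were 16, namely 3 of 31 (9.68%) within 5 Mb and 13 of 39 (33.3%) beyond. The 63 genes with a higher knockout mean became 33 within 10 Mb, 16 of 31 and 17 of 39 in the same steps. With 1 array left out the 63 became 58 to 70. The mean of probe sets and the narrower window give no count of probe sets. The cause of these changes was not tested, apart from the narrower window, which holds fewer genes.

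The numbers did not pair the arrays, and with the replicate block the called probe sets of Uxs1 and Kansl1l had adjusted p values of 0.254 and 0.193. With 1 array left out their adjusted p ran from 0.0388 to 0.171 and from 0.00793 to 0.138. Without the 3 arrays it was 0.119 and 0.13. After quantile normalization, median centring and the trend and robust fit it was 0.109, 0.116 and 0.0697 for Uxs1. For Kansl1l it was 0.0474, 0.0471 and 0.014. Both stayed under 0.05 with array weights and with the covariate.

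Signs turned only for named genes with small differences that did not pass. With the mean of probe sets Mfsd6 became 0.0079, Cflar 0.0007, Cnnm3 0.0237, Slc40a1 0.0736 and Wdr75 -0.33. Without the 3 arrays Mfsd6 became 0.0599, Aff3 0.0774, Slc40a1 0.0192 and Rab23 0.0057. With array weights Nab1 became 0.157 and Aff3 0.0310. With 1 array left out, Mfsd6 ran from -0.25 to 0.0427, Nab1 from -0.206 to 0.111, Asnsd1 from -0.0077 to 0.0511, Aff3 from -0.223 to 0.168, Slc40a1 from -0.155 to 0.0166, Wdr75 from -0.0251 to 0.108 and Pgap1 from -0.0913 to 0.28.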

Other observations

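Of the 73 genes of the region under the intensity threshold, 2 had groups that did not overlap (2.74%), against 12 of all 7490 genes under it (0.16%). Both lie near the floor of the method. Bend6 had a mean of 2.59 in controls and 3.72 in knockouts, a difference of 1.14 ± 0.20 (limma with no filter, adjusted p = 0.215). 1700019A02Rik, an unnamed transcript, differed by 0.48 ± 0.17 (adjusted p = 0.866).

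Ccnyl1, a cyclin-like gene 11.63 Mb above Mstn, is named after its values were seen. It was 10.04, 9.93, 9.85, 10.07 and 10.25 in controls and 9.27, 9.94, 9.26, 9.27 and 10.07 in knockouts (-0.47 ± 0.18, adjusted p = 0.579). Knockouts 2 and 5 lay within the controls and knockouts 1, 3 and 4 below them, the same arrays as for Lancl1. Map2 and the dimmest probe set of Kansl1l also had their highest knockout values in knockouts 2 and 5. How many of all genes did so was not counted. With group means removed, the correlation with the hybridisation controls over the 10 arrays was -0.71 for Ccnyl1 and -0.91 for Map2.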
